A study of Mus musculus with 95 samples.

Results

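The comparison described here is the effect of a heterozygous zQ175 knock-in (KI) allele on small RNA in mouse striatum, set between a line that carries a neomycin resistance (neo) cassette and a line without it. Every library whose label names the striatum was used, 31 of the 95 libraries of the series. The quantity of interest is the interaction, which is the log2 difference between KI and wild type (WT) mice in the neo-deleted line minus that in the neo-intact line. A negative interaction means that the KI effect was lower, or more negative, without the cassette.

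The zQ175 mouse is a model of Huntington's disease, in which an expanded CAG repeat in the huntingtin gene damages the striatum first and most heavily. In such knock-in mice the expanded repeat sits in the mouse's own huntingtin gene, and a selection cassette left beside it after gene targeting can change how strongly the altered allele is expressed. MicroRNAs are short RNAs cut from hairpin precursors that lower the output of matching messenger RNAs, and neurons hold large amounts of several of them. Huntingtin itself was not measured in these libraries, so the genotypes rest on the labels.

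The neo-intact groups were heterozygous z_Q175 KI mice of line CHDI-81003003 and their WT littermates, with 8 animals each. The neo-deleted groups were heterozygous Z_Q175 (neo-) KI mice of line CHDI-81003019 (n = 7) and their WT littermates (n = 8). All mice were on a C57BL6/J background and 6 months old, and total RNA came from the flash-frozen left striatum. Each group had 4 females and 4 males except neo-deleted KI, which had 4 females and 3 males. The labels give no animal in more than 1 striatal library, and a replicate number shared by a KI and a WT mouse does not mark 1 animal. The cassette and anything else that differs between the lines cannot be told apart. Below, with and without the cassette name the line of the mice, for WT littermates as well as KI mice.

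Features carry identifiers of the form MI and 7 digits, the form of miRBase hairpin accessions, and are read here as hairpins of the human set. Implied lengths, with a median of 85 nt and a shortest of 53 nt among the tested features, have the size of hairpins. Many miRNA hairpins have close counterparts in mouse and human, but no table used here pairs these identifiers with names. The features are therefore called by their identifiers, with no function, position or sequence attached, and known markers of striatal neurons or other cells could not be looked up. Counts are estimates, and 87 of the 188 tested features had estimates that were not whole in at least 1 library. Among the named features these are MI0000080, MI0000093, MI0000094, MI0000101, MI0000269, MI0000271, MI0000289, MI0000294, MI0000443, MI0000447, MI0000453, MI0000455, MI0000476, MI0000542, MI0000683, MI0000749, MI0000786, MI0005543 and MI0024976. Their values are less certain, and whether their reads were divided among like entries was not tested. In whole striatum, fewer cells of a type and less RNA per cell cannot be told apart.

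Total estimated counts per library ran from 103873 to 475902, with a median of 129192. Library names carry an L number whose meaning the labels do not give, and it split the libraries into 17 with L7 (median total 117174) and 14 with L8 (median 417800). Among neo-intact mice, 5 of the 8 KI libraries but only 1 of the 8 WT libraries had L8. Among neo-deleted mice, L8 covered 4 of the 7 KI and 4 of the 8 WT libraries. The only neo-intact WT library with L8 was male 3. In the fitted model, 159 of 188 features (84.6%) differed between L8 and L7. The L number and sex were covariates in every fit unless stated. Levels are given as CPM, each library's counts scaled to a common total with TMM factors, and for features that depended strongly on the L number they are given within it.

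Most of the features called in 1 line were called in the other. Of 188 tested features, 29 passed the test between KI and WT when the cassette was present (15.4%). Of these, 14 (7.45%) were higher in KI and 15 (7.98%) lower. Without the cassette 29 also passed (15.4%), of which 16 (8.51%) were higher and 13 (6.91%) lower. A feature is said to be called where edgeR's quasi-likelihood test gave a Benjamini-Hochberg adjusted p under 0.05 over all 188 features. The split into higher and lower calls moved with the scaling, since under DESeq2 size factors the neo-intact calls were 18 up against 10 down and the neo-deleted calls 28 up against 12 down. Under total counts alone they were 10 up against 22 down, and 14 up against 22 down. It also moved with single libraries. Without neo-deleted KI female 1 the calls were 21 up against 9 down with the cassette and 31 up against 11 down without it, and over the 31 fits that left out 1 library the share of calls that were up ran from 46.2% to 71.4% and from 51.9% to 73.8%.

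Called in the same direction in both lines were 20 features (10.6% of those tested), 9 (4.79%) higher and 11 (5.85%) lower in KI. They made up 68.97% of the 29 calls of either line and held 32.1% of all striatal counts. No feature was called in opposite directions. Of each line's 29 calls, 28 had an effect of the same sign in the other line, where 73.9% of all tested features did. Across the 188 features, the KI effects of the lines correlated with Pearson's r = 0.622 and Spearman's rho = 0.621. This is a description over features, which are not independent, and the effects of both lines come from 1 fit with shared L number and sex terms.

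A feature had to have a sizeable effect in each line to be called in both, so the sizes that follow are a description. The median size of the log2 KI effect over the 20 features was 0.39 with the cassette and 0.40 without it, where the medians over all tested features were 0.13 and 0.17. The effect was larger in the neo-deleted line for 12 of the 20 and larger in the neo-intact line for 8. Over all 188 features, 94 interactions lay above 0 and 94 below, with a median of 0.00.

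**Figure D1:**
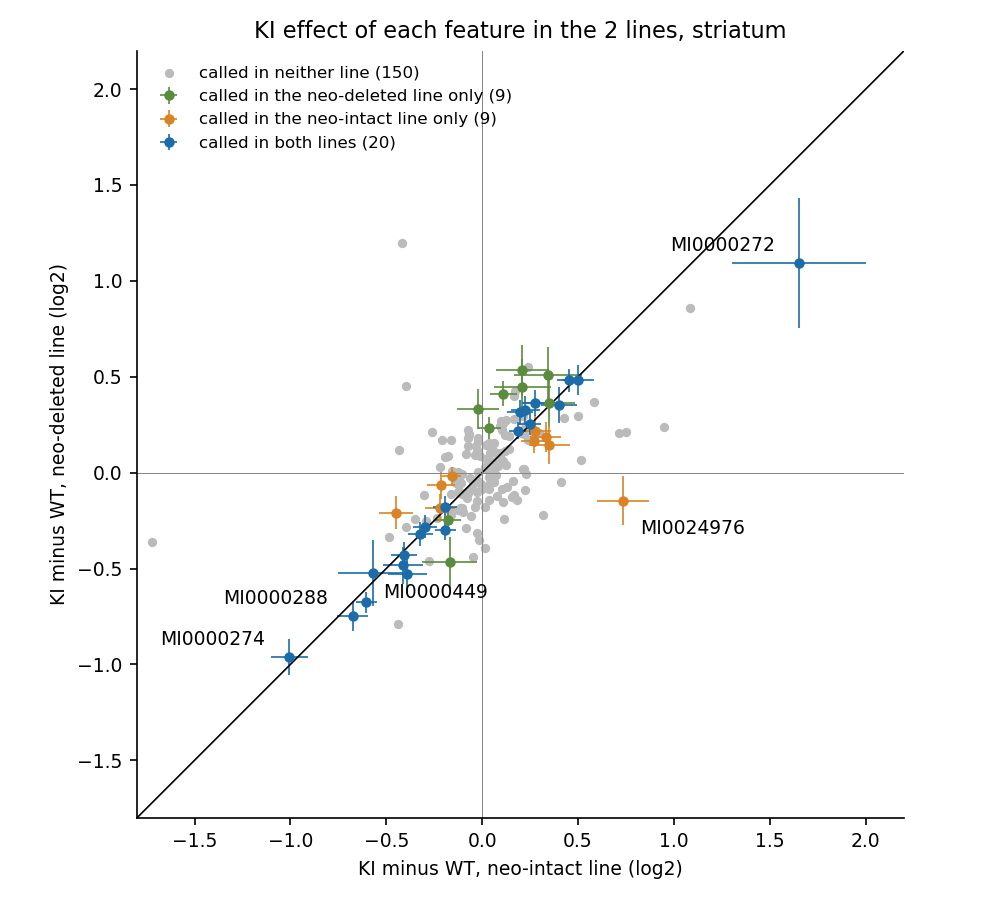
Log2 KI effect of each of the 188 tested features in the neo-intact line (horizontal axis) and the neo-deleted line (vertical axis), with the line of equal effects and, for called features, bars of 1 SE. Of the 20 features called in both lines, 19 lie near the line of equal effects and MI0000272 lies below it, at 1.65 and 1.09, as does MI0024976, at 0.73 and -0.15.

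A p that misses the threshold does not show that 2 effects are alike, so the 95% interval of each interaction was read as well. Lines were said to agree on a feature where it was called in the same direction in both and the interval lay within a 1.5-fold difference either way (0.585 on the log2 scale). That held for 19 of the 20 shared features. Their interactions ran from -0.14 to 0.12, and the ends of their intervals from -0.45 to 0.55. Among these 19, only MI0000449, MI0000274 and MI0000288 had KI effects larger in size than 0.585 in both lines. For the others the bound was wider than the KI effect itself. Agreement here thus means a limited difference between the lines, and equal effects were not shown. Of all 188 features, 121 (64.4%) had an interval within that bound, whether called or not. MI0000808 was the feature just inside it, with a far end of 0.583, and MI0003938 the one just outside, at 0.585.

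Among the 19 agreeing features, 11 were lower in KI, with log2 effects of -1.01 to -0.19 with the cassette and of -0.96 to -0.18 without it. MI0000449 (101 nt) had the lowest p of these. It ran from 4584 to 6079 CPM (median 5392) in neo-intact WT mice and from 3241 to 4334 CPM (median 3877) in neo-intact KI mice. In the neo-deleted line it ran from 4496 to 6364 CPM (median 5321) in WT and from 3053 to 3875 CPM (median 3528) in KI mice. In either line, all KI libraries lay below all WT libraries, whatever their L number.

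With the cassette, the level of MI0000449 in KI was 0.658-fold that in WT (log2 -0.60, SE 0.06, adjusted p = 2.86e-09, edgeR). Without the cassette it was 0.626-fold (log2 -0.68, SE 0.05, adjusted p = 7.80e-11, edgeR). The interaction was -0.07, with an interval from -0.23 to 0.08. Within L7 the log2 effects were -0.63 and -0.60, and within L8 they were -0.54 and -0.75, neo-intact first.

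MI0000274 (109 nt) showed the same agreement at a larger size, although its level depended on the L number. Within L7, neo-intact WT libraries ran from 5697 to 7916 CPM (median 6516) and the 3 KI libraries from 3076 to 3705 CPM. Within L7 the 4 neo-deleted WT libraries ran from 5327 to 6545 CPM and the 3 KI libraries from 2033 to 2843 CPM. In L8 the single neo-intact WT library held 2181 CPM and the 5 KI libraries 1135 to 1331 CPM. For the neo-deleted line in L8, 4 WT libraries ran from 1843 to 2146 CPM and 4 KI libraries from 1132 to 1342 CPM. All KI libraries thus lay below the WT libraries of their own line and L number. The log2 effects were -1.01 (SE 0.10) and -0.96 (SE 0.09), and the interaction was 0.04 with an interval from -0.22 to 0.31.

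MI0000288 (110 nt) fell by 0.68 and 0.75 on the log2 scale in the neo-intact and neo-deleted lines, with an interaction of -0.07 (interval -0.30 to 0.15). Its KI libraries lay below all WT libraries of their line in 8 of 8 and 7 of 7 animals. MI0000261 (68 nt) fell by 0.41 and 0.43, and its interval of -0.20 to 0.17 was among the narrower ones. MI0000786 (66 nt, estimates not whole) fell by 0.32 in each line, with an interaction of 0.00 (interval -0.18 to 0.18). The remaining 6 lower features were MI0002468, MI0000455, MI0000447, MI0000253, MI0000294 and MI0000078. Without the L number in the model the neo-intact effect of MI0000078 turned to 0.41, and those of the other 10 lower features stayed below 0.

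Of these, MI0000294 (110 nt, estimates not whole) had the widest interval of the agreeing features. It ran from 816 to 1964 CPM (median 1050) in neo-intact WT and from 528 to 964 CPM (median 764) in neo-intact KI mice. In neo-deleted mice the range was 800 to 1311 CPM (median 1122) in WT and 618 to 1096 CPM (median 726) in KI. The groups overlapped in both lines. Its interval, from -0.45 to 0.55, only just met the bound.

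MI0000455 (84 nt, estimates not whole) fell by 0.30 with and 0.28 without the cassette (interaction 0.02, interval -0.16 to 0.19). It was the only feature of 188 whose KI effect itself was called as different between L8 and L7. There the KI effect in L8 minus that in L7 was 0.34 (adjusted p = 0.00743, edgeR), so that it was smaller in size in L8.

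**Figure D2:**
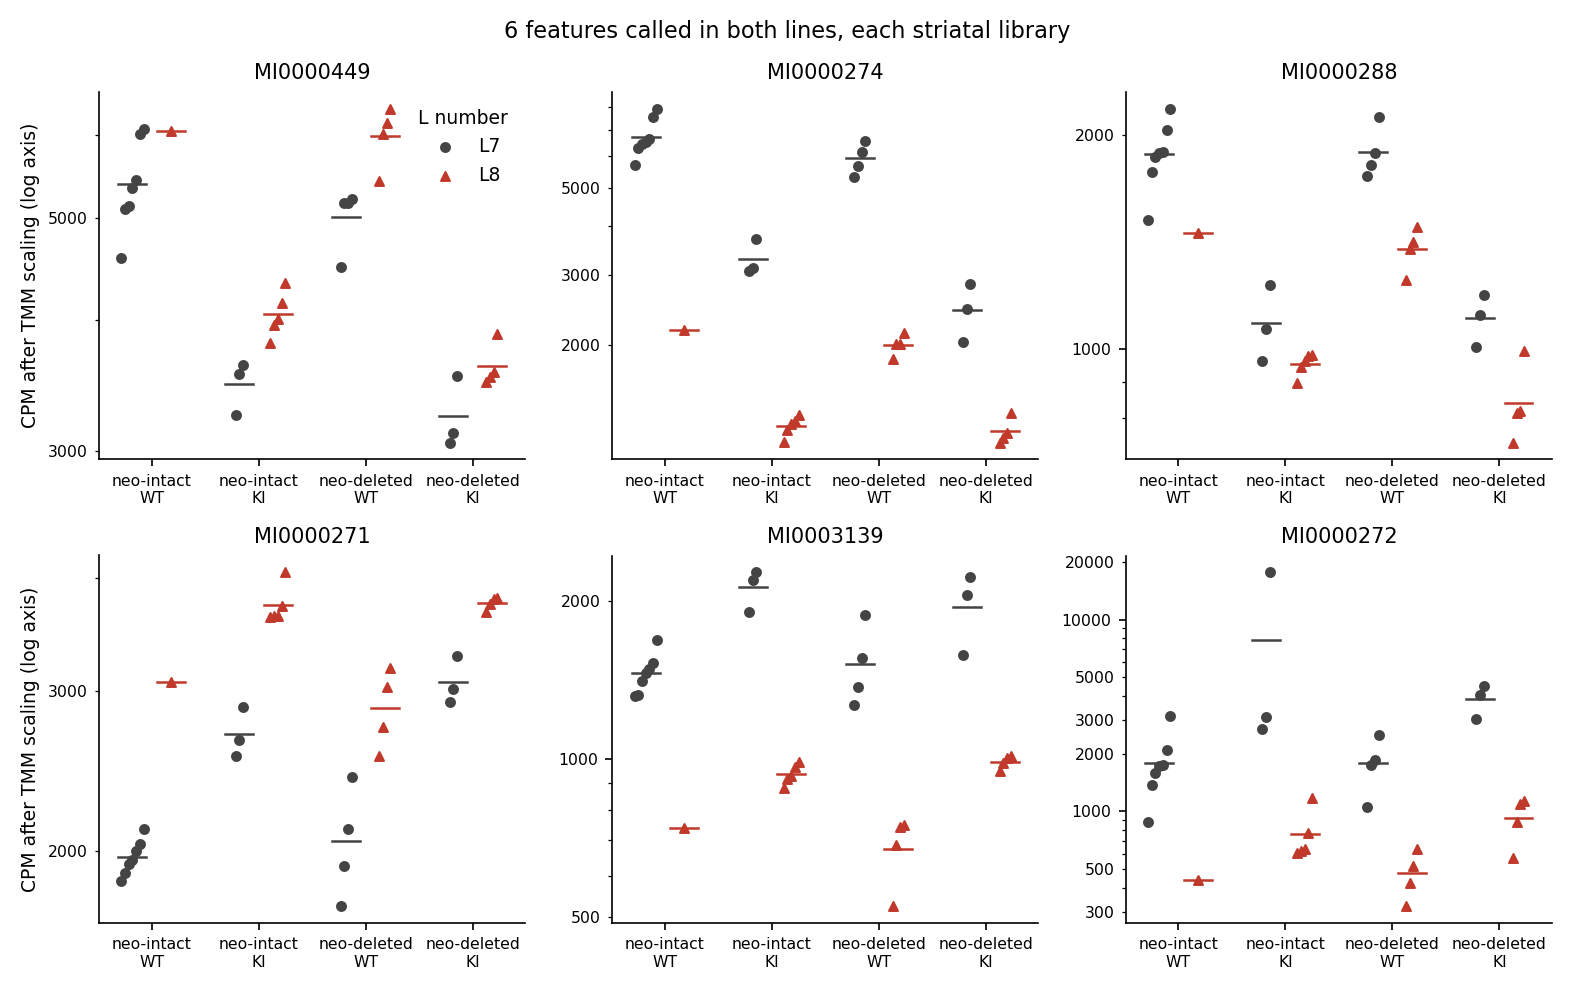
Level in CPM (log axis) of 6 features called in both lines, 1 point per library and 1 bar per mean, by group and L number. MI0000449, MI0000274 and MI0000288 were lower and MI0000271, MI0003139 and MI0000272 higher in KI than in WT mice, and a single neo-intact KI library of MI0000272 stands at 17676 CPM.

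The 8 agreeing features that were higher in KI had log2 effects of 0.18 to 0.50 with the cassette and of 0.22 to 0.48 without it. With the cassette, these effects rested on the L number being in the model. Without that term, 6 of the 8 had neo-intact effects below 0, from -0.43 to -0.0094, and that of MI0003139 was 8.81e-05, none of them called. MI0000271 was the exception, at 0.67. MI0000271 (110 nt, estimates not whole) led them. Within L7 it ran from 1856 to 2115 CPM (median 1954) in neo-intact WT mice and from 2545 to 2883 CPM in the 3 KI libraries. The neo-deleted L7 libraries ran from 1741 to 2418 CPM in 4 WT mice and from 2924 to 3278 CPM in 3 KI mice. No KI library overlapped the WT libraries of its line in L7.

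In L8, MI0000271 stood at 3072 CPM in the single neo-intact WT library and at 3628 to 4060 CPM in the 5 KI libraries. The neo-deleted L8 libraries ran from 2550 to 3186 CPM in WT and from 3668 to 3805 CPM in KI, 4 libraries each. Again the KI libraries lay above the WT libraries of their line. With the cassette, KI levels were 1.37-fold WT (log2 0.45, SE 0.06, adjusted p = 3.83e-06, edgeR) and without it they were 1.40-fold (log2 0.48, SE 0.06, adjusted p = 4.21e-07). The interaction was 0.03, with an interval from -0.15 to 0.21.

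MI0003139 rose by 0.50 and 0.48 on the log2 scale, with an interaction of -0.02 (interval -0.25 to 0.22). MI0000472 (97 nt) rose by less, 0.18 and 0.22, and its interval of -0.09 to 0.16 was the narrowest among the shared features. All 8 neo-intact and all 7 neo-deleted KI libraries of MI0000472 lay above the WT libraries of their line and L number. The others were MI0000803, MI0000683, MI0000745, MI0000749 and MI0000093, with effects of 0.20 to 0.40 in neo-intact mice and of 0.25 to 0.36 in neo-deleted mice.

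For 8 of the 188 tested features the KI libraries lay beyond every WT library of their own L number in both lines. These were MI0000253, MI0000261, MI0000271, MI0000274, MI0000288, MI0000449, MI0000455 and MI0000472, and all 8 were called in both lines. Taken line by line, such separation was found in 16 features of the neo-intact line (8.51%) and 11 of the neo-deleted line (5.85%). These counts are not alike, since the 5 neo-intact KI libraries with L8 had only 1 WT library to pass. All 11 of the neo-deleted line were called in both lines, and 10 of the 16. Separation and calls draw on the same values.

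MI0000272 (110 nt) was called higher in both lines without meeting the bound. Within L7 the neo-intact KI libraries held 17676, 3120 and 2699 CPM, and the 7 WT libraries ran from 883 to 3137 CPM (median 1734). In the neo-deleted line the L7 libraries held 3041, 4026 and 4506 CPM in KI and from 1050 to 2492 CPM in 4 WT mice. In L8 the neo-intact KI libraries ran from 607 to 1169 CPM against 437 CPM in the 1 WT library. The neo-deleted L8 libraries ran from 570 to 1132 CPM in KI and from 321 to 640 CPM in WT, 4 each.

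A single library decided the order of the lines for MI0000272. The log2 effects were 1.65 with the cassette (SE 0.35, adjusted p = 0.00107, edgeR) and 1.09 without it (SE 0.34, adjusted p = 0.0249), with an interaction of -0.56 (interval -1.53 to 0.41). Without the neo-intact KI library at 17676 CPM, female 1, they were 0.86 and 1.13, and the interaction was 0.27 (interval -0.27 to 0.82). Both calls held in that fit, and neither interval met the bound. The neo-deleted call was lost without WT female 2 (adjusted p = 0.0549, edgeR).

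Of the 20 shared features, 11 kept both calls when each of the 31 libraries was left out in turn. MI0000786 and MI0000253 lost the neo-intact call without KI male 1, and MI0002468 without KI male 1 or WT female 1. MI0000078, MI0000447, MI0000294, MI0000749 and MI0000093 were near the threshold in at least 1 line, and their calls were lost without any 1 of 8 to 21 libraries. Within L7 alone and within L8 alone, all 20 had the sign of the joint fit in both lines. The 20 were chosen by the joint fit of these same libraries, so their signs are a description and no separate support. In L8 the neo-intact line had only 1 WT library. Within L7, 12 of the 20 were called in neo-intact and 8 in neo-deleted mice, and within L8 they numbered 3 and 16.

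MI0024976 was the only feature whose KI effect was called as different between the lines (0.532% of 188, with 9 features, or 4.79%, at an unadjusted p under 0.05). That count was 18 of 187 features without neo-deleted WT female 4 and 14 of 189 without neo-intact KI female 2, and MI0024976 was the only call in both of these fits. Its implied length was 53 nt, the shortest of the tested features. In neo-intact mice with L7, the 7 WT libraries ran from 2423 to 3843 CPM (median 2950) and the 3 KI libraries held 4572, 4746 and 4939 CPM. In L8 the single neo-intact WT library held 512 CPM and the 5 KI libraries 545, 706, 868, 876 and 1047 CPM. Within each L number, every neo-intact KI library thus lay above every WT library.

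The neo-deleted line did not show that separation. Its L7 libraries held 2747, 4048, 4203 and 4488 CPM in WT mice and 2895, 3448 and 4934 CPM in KI mice. In L8 the WT libraries held 531, 578, 702 and 734 CPM and the KI libraries 416, 484, 596 and 620 CPM. KI and WT libraries overlapped in both L numbers. MI0024976 was 6.56-fold higher in L7 than in L8 in the fitted model.

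With the cassette, the KI level of MI0024976 was 1.66-fold the WT level (log2 0.73, SE 0.14, adjusted p = 0.000224, edgeR). Without it the level was 0.904-fold (log2 -0.15, SE 0.13, adjusted p = 0.468). The interaction was -0.88 (SE 0.19, 95% interval -1.26 to -0.50, adjusted p = 0.0101, edgeR), which is a 0.543-fold ratio of the KI effects. On the log2 scale, WT mice of the neo-deleted line were 0.39 above WT mice of the neo-intact line (SE 0.13, adjusted p = 0.470, edgeR). KI mice of the neo-deleted line were 0.49 below those of the neo-intact line (SE 0.13, adjusted p = 0.142, edgeR), and neither difference was called. The interaction is the KI difference minus the WT difference, so its estimate draws on WT as well as KI mice.

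**Figure D3:**
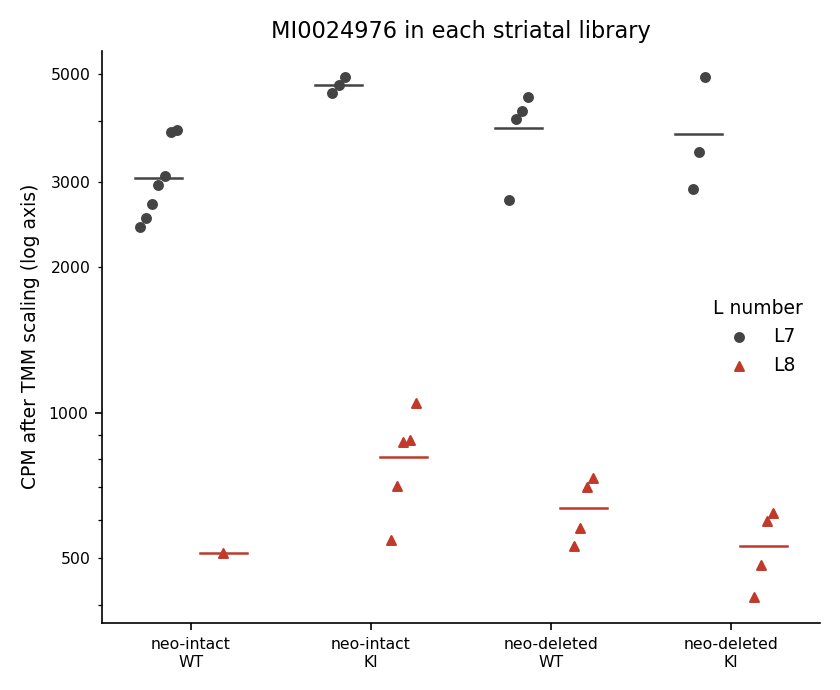
Level in CPM (log axis) of MI0024976 in each striatal library by group and L number, with 1 bar per mean. In the neo-intact line KI libraries lie above the WT libraries of the same L number, with L7 at 4572 to 4939 against 2423 to 3843 CPM, while the neo-deleted groups overlap.

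The interaction of MI0024976 had the same direction within each L number, at -0.74 within L7 (SE 0.22, unadjusted p = 0.00420, adjusted p = 0.383, edgeR) and -0.98 within L8 (SE 0.38, unadjusted p = 0.0232, adjusted p = 0.672). It was called in neither of these smaller fits. The L8 value rests on 1 neo-intact WT library. Without the L number in the model the interaction was 0.10 (SE 0.89, adjusted p = 0.947), in the other direction. In males alone and in females alone, 0 interactions were called. Of 15 alternative fits of all or part of the libraries, 10 kept the call of MI0024976. When each library was left out in turn, its interaction ran from -0.96 to -0.81. The call held in 31 of 31 of these fits, at adjusted p of 0.00113 to 0.0323 (edgeR).

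Estimates of MI0024976 were not whole numbers in 2 of the 31 libraries, and in both its sum with MI0024975 was whole within 0.005. MI0024975 held 7.04 estimated counts over all libraries, against 10959 for MI0024976. Whether reads were divided between the entries of the pair was not tested.

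**Figure D4:**
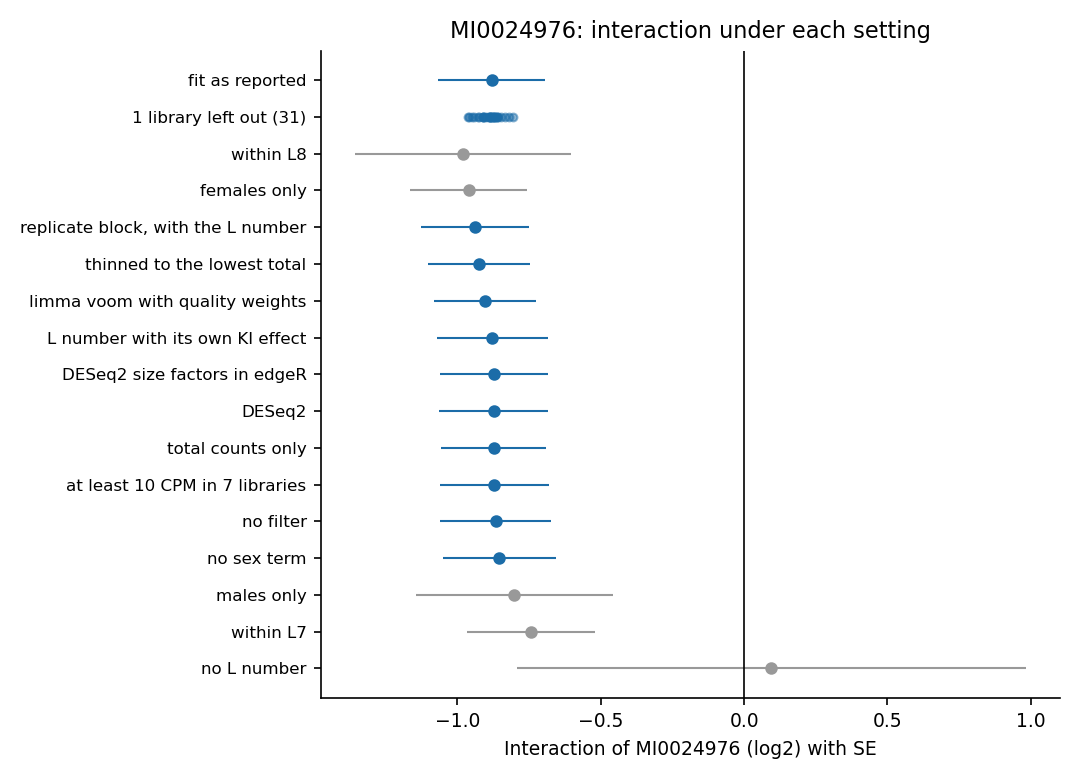
Interaction of MI0024976 (log2, with SE) in the fit as reported, with each library left out, and under each alternative, in blue where its adjusted p was under 0.05 and in grey otherwise. All values lie between -0.98 and -0.74 except the fit without the L number, at 0.10.

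The other 8 features with an unadjusted interaction p under 0.05 were not called, and their adjusted p was 0.295 or more. MI0003761 (66 nt) had the lowest, with an interaction of 0.30 (SE 0.09, unadjusted p = 0.00314, adjusted p = 0.295, edgeR). Its KI effect was 0.11 in the neo-intact line (SE 0.07, adjusted p = 0.357) and 0.41 in the neo-deleted line (SE 0.07, adjusted p = 2.78e-05), where it was called.

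Within L7, MI0003761 held 2650 to 3236 CPM (median 3007) in 7 neo-intact WT and 3007 to 3501 CPM in 3 KI libraries. In the neo-deleted line the L7 values were 2458 to 2834 CPM in 4 WT and 2810 to 3736 CPM in 3 KI libraries. KI and WT overlapped in both lines at L7. In L8 they ran from 1293 to 1534 CPM in 5 neo-intact KI libraries against 1323 CPM in the WT library, and from 1496 to 1685 against 1019 to 1255 CPM in the neo-deleted line. Only the neo-deleted line in L8 was without overlap. The interaction was 0.13 within L7 and 0.39 within L8.

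MI0003760 (118 nt) was also called in the neo-deleted line alone, with an interaction of 0.35 (interval 0.05 to 0.66). MI0000760 (72 nt) had log2 effects of 0.04 and 0.23 and an interaction of 0.20 (interval 0.03 to 0.37). MI0000453 and MI0000474 had positive interactions of 0.85 (interval 0.18 to 1.52) and 0.55 (interval 0.11 to 0.99), from effects of -0.40 and 0.45, and -0.43 and 0.12. They were among the scarcer features, with mean levels of 172 and 139 CPM. Estimates of MI0000453 were not whole. MI0000791 and MI0000476 had interactions of 0.25 and 0.14, and MI0000101 one of -0.32.

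Calls made in 1 line only were not shown to differ between the lines, except for MI0024976. Of the 9 features called in the neo-intact line alone, 8 had an interaction within the 1.5-fold bound. They were MI0000542, MI0000084, MI0000289, MI0001725, MI0000077, MI0000802, MI0005543 and MI0000476. MI0000542 (82 nt, estimates not whole) was the most strongly called, at log2 -0.45 (adjusted p = 0.000537, edgeR) against -0.21 (adjusted p = 0.0942) in the neo-deleted line. Its interaction was 0.24 (interval -0.01 to 0.49, adjusted p = 0.912).

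MI0000289 (110 nt, estimates not whole) ran from 77281 to 106134 CPM (median 83091) in neo-intact WT and from 95794 to 125699 CPM (median 114435) in neo-intact KI mice. In neo-deleted mice it ran from 78319 to 106743 CPM (median 92033) in WT and from 91083 to 115062 CPM (median 104708) in KI. The groups overlapped in both lines. The log2 effects were 0.33 (adjusted p = 0.00441, edgeR) and 0.19 (adjusted p = 0.0975), with an interaction of -0.14 (interval -0.37 to 0.08). MI0000084 (77 nt) had effects of 0.27 and 0.17, and MI0001725 (80 nt) of 0.27 and 0.22. Without the L number in the model, the neo-intact effects of MI0001725 and MI0000077 changed sign, to -0.45 and 0.078. With single libraries left out, the neo-intact calls of MI0000542, MI0000084 and MI0000289 held throughout. MI0001725 lost its call without WT male 3 and MI0000802 without KI male 4. The calls of MI0000077, MI0005543 and MI0000476 were lost without any 1 of 27, 28 and 18 libraries.

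The neo-deleted line alone gave MI0003761, MI0000443, MI0005561, MI0000269, MI0003757, MI0000080, MI0000760, MI0000094 and MI0003760, of which 4 met the bound. Meeting it does not mean equal effects, since the interval of MI0000760 lay within the bound but wholly on the positive side. MI0000269 (110 nt, estimates not whole) had effects of 0.21 with the cassette (adjusted p = 0.378) and 0.53 without it (adjusted p = 0.00419, edgeR). Its interaction of 0.32 had an interval from -0.06 to 0.71, so neither a difference nor a limit within 1.5-fold was shown. MI0000443 (85 nt, estimates not whole) and MI0005561 (86 nt) had nearly equal effects in the lines, at -0.18 and -0.25, and 0.35 and 0.36. The neo-deleted calls of MI0003761, MI0000269 and MI0000760 held with any 1 library left out. Those of MI0000080 and MI0003757 were lost without KI male 2, and that of MI0003760 without WT female 2 or WT female 3. MI0000443, MI0005561 and MI0000094 lost theirs without any 1 of 6, 8 and 5 libraries.

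**Figure D5:**
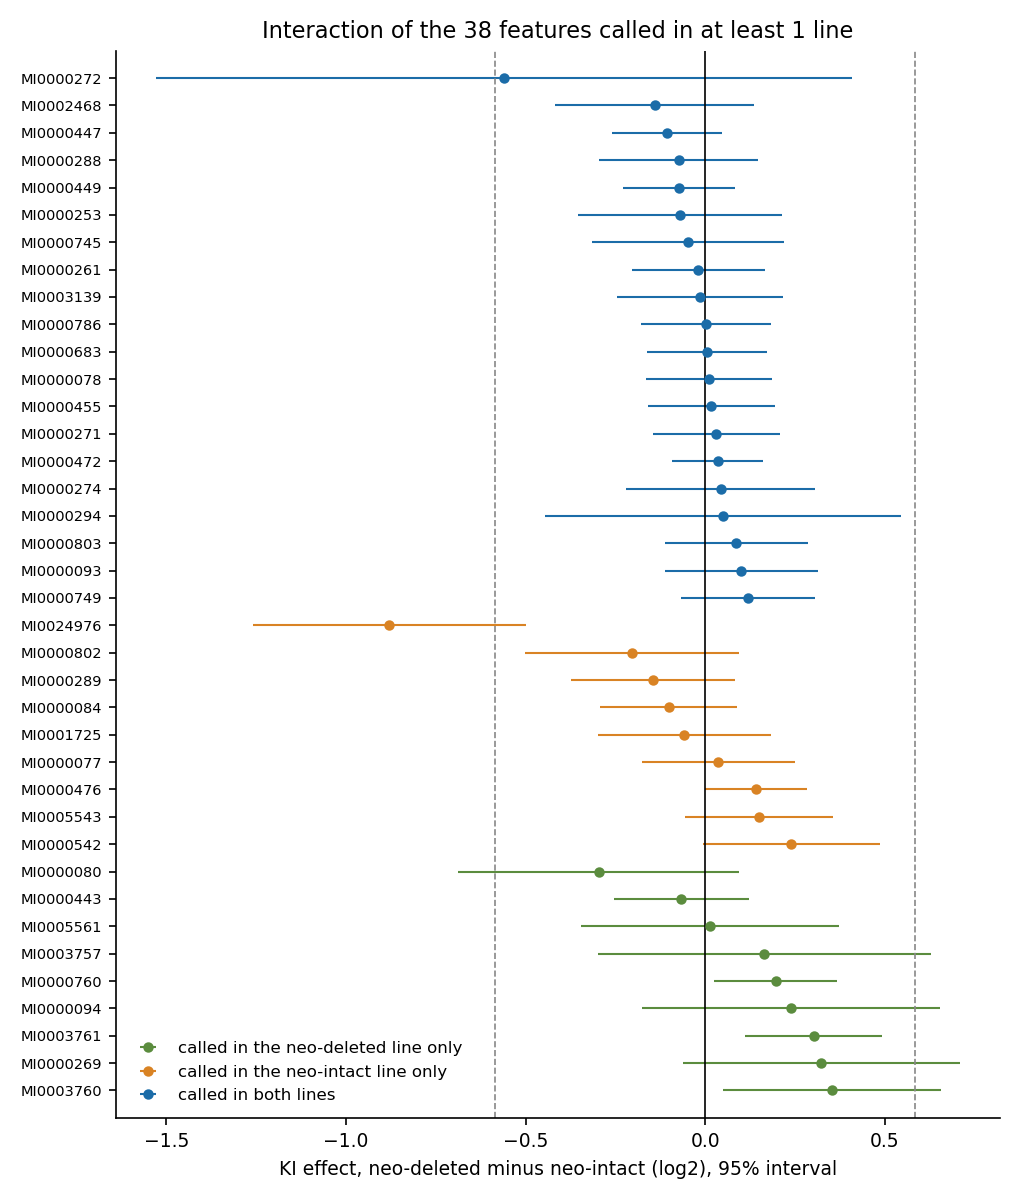
Interaction (log2, neo-deleted minus neo-intact KI effect) with 95% interval for the 38 features called in at least 1 line, grouped by the line of the call, with dashed lines at a 1.5-fold difference either way. MI0024976 is the only feature called as different, at -0.88, and 19 of the 20 features called in both lines lie within the dashed lines.

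For the 150 features called in neither line, 90 interactions lay within the bound and 60 did not. How far the lines could be said to agree followed the level of a feature. Of 90 features with a mean of at least 1000 CPM, 75 met the bound, and of 98 below that level, 46. The median half-width of the 95% interval was 0.32 on the log2 scale, from 0.13 to 2.36. Among the 66 features that were neither within the bound nor called as different, interactions ran from -0.71 to 1.61 and the median of the mean levels was 283 CPM, against 1984 CPM for those within it.

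Comparing the lines directly within a genotype gave no call. Between WT mice of the lines, 0 of 188 features (0%) passed edgeR's test and 8 (4.26%) had an unadjusted p under 0.05, and limma voom also gave 0 calls. Without neo-deleted WT female 4, the latter count was 19 of 187, with 0 calls. Between KI mice, 0 (0%) passed edgeR's test and 5 (2.66%) had an unadjusted p under 0.05, or 9 of 190 without neo-deleted KI female 1, while limma voom gave 1 call, MI0024976, which was named after its value was seen. edgeR also called MI0024976 between KI mice without neo-intact KI male 3 (log2 -0.56, adjusted p = 0.0139) or without neo-deleted KI male 3 (log2 -0.56, adjusted p = 0.0435). Averaged over the lines, the KI effect was called in 46 features (24.5%), 26 (13.8%) higher and 20 (10.6%) lower. Over the fits without 1 library the share of these calls that were higher ran from 52.9% to 75%, the most being 39 up against 13 down without neo-deleted KI male 2.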

How the data were processed

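Small RNA counts of 31 striatal libraries were analysed, and the 64 libraries of cortex and liver served only for comparison in the closing section. Members and lists were chosen with earlier results of these data known. The authors deposited a table of unscaled estimated counts of 1881 features and a table of FPKM values, used here only to derive each feature's length. CASAVA 1.8.2 and the mouse build mm10 were used, per the submitters' processing notes. Aligner, counter and source of the features are not given in the sources used here. No file or reference table paired identifiers with names, so the miRNA and cell type lists drawn up could not be applied.

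Estimated counts were rounded and fitted in R 4.3.3 with edgeR 4.0.16 (TMM scaling, filterByExpr with minimum count 10 and minimum total 15 by group). The filter left 188 of 372 features with a striatal count, holding 99.8% of counts. The biological coefficient of variation was 0.182. The model held 4 groups of line and genotype, L number and sex, and the interaction, each line's KI effect, their mean, and the lines within a genotype were contrasts of 1 fit. P values are two-sided and intervals are 95%, from the quasi-likelihood SE. Scripts were tested on simulated data. Named were all called interactions, up to 12 at an unadjusted p under 0.05, up to 20 features called in both lines, and up to 5 per line called in 1 line only, with the others of that kind listed. Alternatives used DESeq2 1.42.0 and limma 3.58.1, no L number, L7 or L8 alone, 1 sex, thinned counts and each library left out. No 2 libraries of a group agreed within sampling noise (105 pairs, chi-square over its degrees of freedom at least 3.93). Total counts limit the precision of scarce features.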

Additional observations from a re-analysis of the deposited data

Results flagged for a closer look

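The KI effect of MI0024976 was called as different between the lines, with an interaction of -0.88 on the log2 scale (adjusted p = 0.0101, edgeR's interaction test). This rested on the L number being in the model, since without that term the interaction was 0.10. It was not called within L7 alone, within L8 alone or in either sex alone. In the neo-intact line 8 of 8 KI libraries lay above every WT library of their L number, which in L8 was a single library. In the neo-deleted line 1 of 7 did and 2 of 7 lay below.

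Groups of fewer than 4 libraries of 1 L number were not tested. Neo-intact KI with L7, where female 1 stood far above the others for MI0000272, was among these. Within groups of 4 to 7 libraries, 8 values of 150 sets tested lay apart from the other libraries of their set. The criterion was Dixon's at the 95% level, which chance passes in about 1 in 20 sets. The neo-deleted WT library of female 4 (L7) gave 3 of them. It held 821 CPM of MI0003760 against 519 to 558 CPM in the other libraries, 4496 CPM of MI0000449 against 5170 to 5216 CPM, and 1693 CPM of MI0000745 against 1376 to 1417 CPM. Among neo-deleted WT libraries with L8, male 2 held 1440 CPM of MI0000803 against 1481 to 1489 CPM and female 3 held 66716 CPM of MI0000078 against 55552 to 56909 CPM. Among neo-intact KI libraries with L8, male 2 held 1169 CPM of MI0000272 against 607 to 768 CPM, and female 3 held 4060 CPM of MI0000271 against 3628 to 3723 CPM. The neo-intact WT library of female 3 (L7) held 35331 CPM of MI0000749 against 28925 to 30838 CPM.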

How the results depend on the processing

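Without the L number, 0 interactions were called in place of 1, the neo-deleted KI effect gave 10 calls in place of 29, the mean KI effect 21 in place of 46, shared calls were 8 in place of 20, and intervals within 1.5-fold 39 in place of 121. The 8 shared calls were among the 20. Within L7 these counts were 0, 8, 23, 6 and 74, with 13 neo-intact calls in place of 29, and within L8 there were 0 interactions, 3 neo-intact calls, 31 neo-deleted calls, 18 mean calls and 3 shared calls. In males there were 0 interactions, 9 neo-intact, 16 neo-deleted, 20 mean and 8 shared calls, and in females 0, 14, 10, 22 and 9, with 75 intervals within the bound. These subsets hold fewer libraries, yet within L8 the neo-deleted calls were more than the 29 of all libraries; the cause was not tested. DESeq2 gave 47 neo-deleted calls and limma voom 1 call between KI mice of the lines; the cause was not tested. With each library left out, calls ranged from 1 to 1 for the interaction, 21 to 31 neo-intact, 25 to 42 neo-deleted, 44 to 60 for the mean, 16 to 24 shared, 116 to 127 within the bound, 0 to 0 between WT mice and 0 to 1 between KI mice of the lines.

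Signs turned without the L number for the interaction of MI0024976 (0.10) and for 10 neo-intact KI effects: MI0024976 (-0.30), MI0000749 (-0.27), MI0000683 (-0.14), MI0000093 (-0.43), MI0000472 (-0.22), MI0001725 (-0.45), MI0000745 (-0.028), MI0000803 (-0.0094), MI0000078 (0.41) and MI0000077 (0.078). These groups hold unequal numbers of L8 libraries. Within L7, the neo-deleted effect of MI0003757 turned to -0.043. The share of higher calls of the mean KI effect was 56.5%, against 68.6% under DESeq2 size factors and 35.4% under total counts. Deviations of same-numbered KI and WT mice from their groups correlated with a median of -0.09 in the neo-intact line (-0.35 to 0.17, 3 of 8 pairs over 0.1). In the neo-deleted line the median was 0.10 (-0.18 to 0.40, 3 of 7 pairs over 0.1). Other pairs had medians of -0.0016 and -0.0089, and the difference was not tested. With the replicate number as a block, 1 interaction, 24 neo-intact, 28 neo-deleted and 17 shared calls were found. Letting the L number have its own KI effect, an alternative chosen after seeing the data, gave 1, 24, 27 and 18. Depth limits scarce features.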

Other observations

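The same model was fitted to cortex and liver with their own L numbers. By their labels these tissues came from the same mice as the striatal libraries, except that neo-deleted KI male 1 had no striatal library. All neo-intact KI libraries of cortex shared a single L number, which only some of the neo-intact WT libraries had. Neo-intact effects and interactions in cortex thus depend on how well the L number term fits. In cortex, 0 of 186 interactions were called by edgeR and 13 had an unadjusted p under 0.05. All 20 features called in both striatal lines were tested there, and 18 had a mean KI effect of the striatal sign, none of them called. The 20 were chosen by their striatal values, so this count is a description and no support from separate mice. Of all features tested in both cortex and striatum, 65.9% had the striatal sign. In liver, 0 of 131 interactions were called and 10 had an unadjusted p under 0.05, and 7 of 14 shared features tested had the striatal sign, where 66 of all 108 features tested in both liver and striatum (61.1%) did. The interaction of MI0024976 was 0.08 in cortex (SE 0.32, adjusted p = 0.946, edgeR) and -0.04 in liver (SE 0.22, adjusted p = 0.996). Its difference from the striatal interaction was not tested.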
